A study of Mus musculus with 7 samples.

Results

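The Hox genes are the homeobox transcription factor genes of the clusters Hoxa, Hoxb, Hoxc and Hoxd. All 39 rows of the count table whose symbol was Hox, a cluster letter from a to d and a paralog number were taken, of 24421 rows in all. They were compared between stromal cells of mouse mammary tumors and of normal mammary fat pad. Cancer-associated fibroblasts (pCAF, 3 libraries) came from BALB/c females, given 100000 4T1-luc mammary carcinoma cells in the lower left mammary fat pad and killed when tumors measured 1 cm. These cells were sorted as Ter119-, CD45-, EpCAM- and PDPN+ (podoplanin, a fibroblast surface protein), although the selection field of pCAF replicate 3 read PDPN-. The group NMF held 4 libraries of untreated BALB/c mammary fat pad cells, sorted with the same negative markers but not on PDPN. The labelled ages were 8 weeks in pCAF, which was also the age at injection, and 12 weeks in NMF. The titles call each library a biological replicate. The labels did not say which mammary fat pad the NMF cells came from, nor which animals stood behind each library. Each p-value thus rests on library-to-library spread, and how much of that spread lies between animals is not known.

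In vertebrates the Hox genes of a cluster lie in the order in which they are used along the head-to-tail axis. Genes with low paralog numbers pattern anterior levels and those with high numbers posterior levels and distal limbs, and genes with the same number in different clusters are paralogs. Adult fibroblasts keep a Hox pattern that reflects the body site they come from. Here paralogs 1 to 3 are called anterior, 4 to 8 central and 9 to 13 posterior. In the mm10 assembly the 11 Hoxa genes lie on chromosome 6 (minus strand), the 10 Hoxb genes on chromosome 11 (96194316 to 96368256, plus strand), the 9 Hoxc genes on chromosome 15 (102921103 to 103036852, plus strand) and the 9 Hoxd genes on chromosome 2 (74668310 to 74765142, plus strand).

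The promoters of the posterior gene with the largest rise and of 3 genes with large falls are shown because the title of the series concerns DNA methylation, which acts on cytosines followed by guanine. They are 300-base RefSeq windows around the annotated start (GRCm38.p6), with every CG pair in capitals. The Hoxa11 window is chr6:52245761-52246060, minus strand, and the Hoxa7 window chr6:52218524-52218823, minus strand. The Hoxd9 window is chr2:74697513-74697812, plus strand, and the Hoxd4 window chr2:74721728-74722027, plus strand.
Hoxa11: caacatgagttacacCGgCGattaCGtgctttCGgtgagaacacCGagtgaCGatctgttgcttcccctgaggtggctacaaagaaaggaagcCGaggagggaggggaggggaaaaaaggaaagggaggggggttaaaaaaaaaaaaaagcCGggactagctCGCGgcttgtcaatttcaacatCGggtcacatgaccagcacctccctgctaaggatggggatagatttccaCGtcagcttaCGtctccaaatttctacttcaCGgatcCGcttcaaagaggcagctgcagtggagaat
Hoxa7: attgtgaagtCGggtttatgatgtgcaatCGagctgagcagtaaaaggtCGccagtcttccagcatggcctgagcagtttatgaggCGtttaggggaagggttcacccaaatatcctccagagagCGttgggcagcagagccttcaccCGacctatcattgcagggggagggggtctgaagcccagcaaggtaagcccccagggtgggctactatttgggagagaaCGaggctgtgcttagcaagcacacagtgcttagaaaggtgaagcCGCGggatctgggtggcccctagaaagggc
Hoxd9: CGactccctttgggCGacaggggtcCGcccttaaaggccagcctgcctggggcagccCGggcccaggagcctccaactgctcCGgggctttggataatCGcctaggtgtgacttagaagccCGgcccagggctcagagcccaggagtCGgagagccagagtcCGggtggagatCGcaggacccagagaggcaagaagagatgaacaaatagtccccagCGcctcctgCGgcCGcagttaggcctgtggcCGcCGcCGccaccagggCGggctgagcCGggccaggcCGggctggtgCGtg
Hoxd4: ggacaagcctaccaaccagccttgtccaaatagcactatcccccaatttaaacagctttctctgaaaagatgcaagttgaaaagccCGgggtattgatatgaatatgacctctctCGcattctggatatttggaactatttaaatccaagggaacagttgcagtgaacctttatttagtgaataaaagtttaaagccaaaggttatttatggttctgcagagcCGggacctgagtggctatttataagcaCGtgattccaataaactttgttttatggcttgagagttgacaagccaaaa
The windows held 15 CG pairs in Hoxa11, 9 in Hoxa7, 20 in Hoxd9 and 4 in Hoxd4, against a median of 7 over all 32851 windows of the table. Windows with at least as many CG pairs made up 34.6%, 45.8%, 26.5% and 68.6% of all windows for these 4 genes in that order. The table matched 22 of the 39 Hox genes with 24 windows, whose median was 14.5 CG pairs. The core RUNX motif TGTGGT, searched on both strands, was in 1 of the 24 Hox windows (4.17%) and in 16.8% of all windows. The motif TGATTNAT of PBX and Hox dimers, searched on both strands, was in 2 of the 24 (8.33%) and in 3.22% of all windows. Methylation itself was not measured in these libraries.

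Total counts per library ran from 1885039 to 4990070. Levels are given in CPM, counts scaled to a common library size, and 1 count was worth 0.187 to 0.563 CPM. The libraries read the 3' ends of transcripts, and single genes are not compared with each other by level here. Sums and shares over several genes weigh each gene by its own counts. In pCAF replicate 1 only 11090 genes were detected, whereas each of the other 6 libraries detected 13222 to 14353, and 7 of the 24 tested Hox genes were at 0 in it. Hoxa3, Hoxa5, Hoxa7 and Hoxb9 were at 0 in it while each other library held at least 10 counts, as were 165 genes in the whole table. The groups also differed in other cell types. All 16 blood endothelial markers were lower in pCAF, where their summed level ran from 147 to 319 CPM, against 4300 to 7879 CPM in NMF, and 3 to 8 of them were at 0 per pCAF library. Adipocyte markers summed to 189 to 244 CPM in pCAF and 2243 to 15900 CPM in NMF, and Schwann cell markers to 4.99 to 14.1 CPM in pCAF and 235 to 977 CPM in NMF. The groups overlapped in the sums of epithelial markers (111 to 275 CPM in pCAF and 192 to 613 CPM in NMF), skeletal muscle markers (18.8 to 70.4 CPM in pCAF and 63.8 to 247 CPM in NMF) and lymphatic endothelial markers (23.3 to 46.8 CPM in pCAF and 32.4 to 78.8 CPM in NMF). They also overlapped in those of pericyte and smooth muscle markers (261 to 436 CPM in pCAF and 381 to 580.1 CPM in NMF) and leukocyte markers (22.7 to 59.1 CPM in pCAF and 20.5 to 189 CPM in NMF). Even so, 4 of 9 tested epithelial, 3 of 7 skeletal muscle and 3 of 7 leukocyte markers were lower in pCAF and none higher. Of 9 pericyte and smooth muscle markers 4 were lower and 1 higher, and of 3 lymphatic markers 1 was lower and 1 higher. Over all tested genes 14.2% were lower and 14.3% higher. Fibroblast markers summed to 86512 to 95613 CPM in pCAF and 33173 to 56808 CPM in NMF. The part of these cells in the Hox results was not tested. In such bulk samples, fewer cells of a type and less RNA per cell cannot be told apart.

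Central genes held a smaller part of the Hox counts in the tumor fibroblasts than in fat pad cells. Of the 39 genes, 6 had no count in any library, 9 were too low to test and 24 were tested. In pCAF 8 of these 24 were lower (33.3%) and 3 higher (12.5%), in edgeR's quasi-likelihood test at a Benjamini-Hochberg adjusted p under 0.05 over all genes. The shares over all 10535 tested genes were 14.2% lower and 14.3% higher. The median log2 fold change, pCAF over NMF, was -0.42 over the 24 Hox genes and -0.02 over all tested genes. Of the 8 lower genes 7 were central, namely Hoxa7, Hoxb4, Hoxb5, Hoxb6, Hoxc4, Hoxd4 and Hoxd8, and the other was Hoxd9. The 3 higher genes were Hoxb2, Hoxa4 and Hoxa11. In 8 of the 24 genes every pCAF library lay below every NMF library and in 3 above, against 21.4% and 19.0% of all tested genes, or 40.4% in either direction. Leaving out single libraries gave between 4 lower genes, when pCAF replicate 2 was dropped, and 8 when pCAF replicate 1 was. Dropping pCAF replicate 3 or NMF replicate 2 left 5 lower genes. Higher genes numbered 1 without NMF replicate 1, 2 or 3 and 5 without pCAF replicate 1, and the scaling by library totals alone also gave 1.

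**Figure D1:**
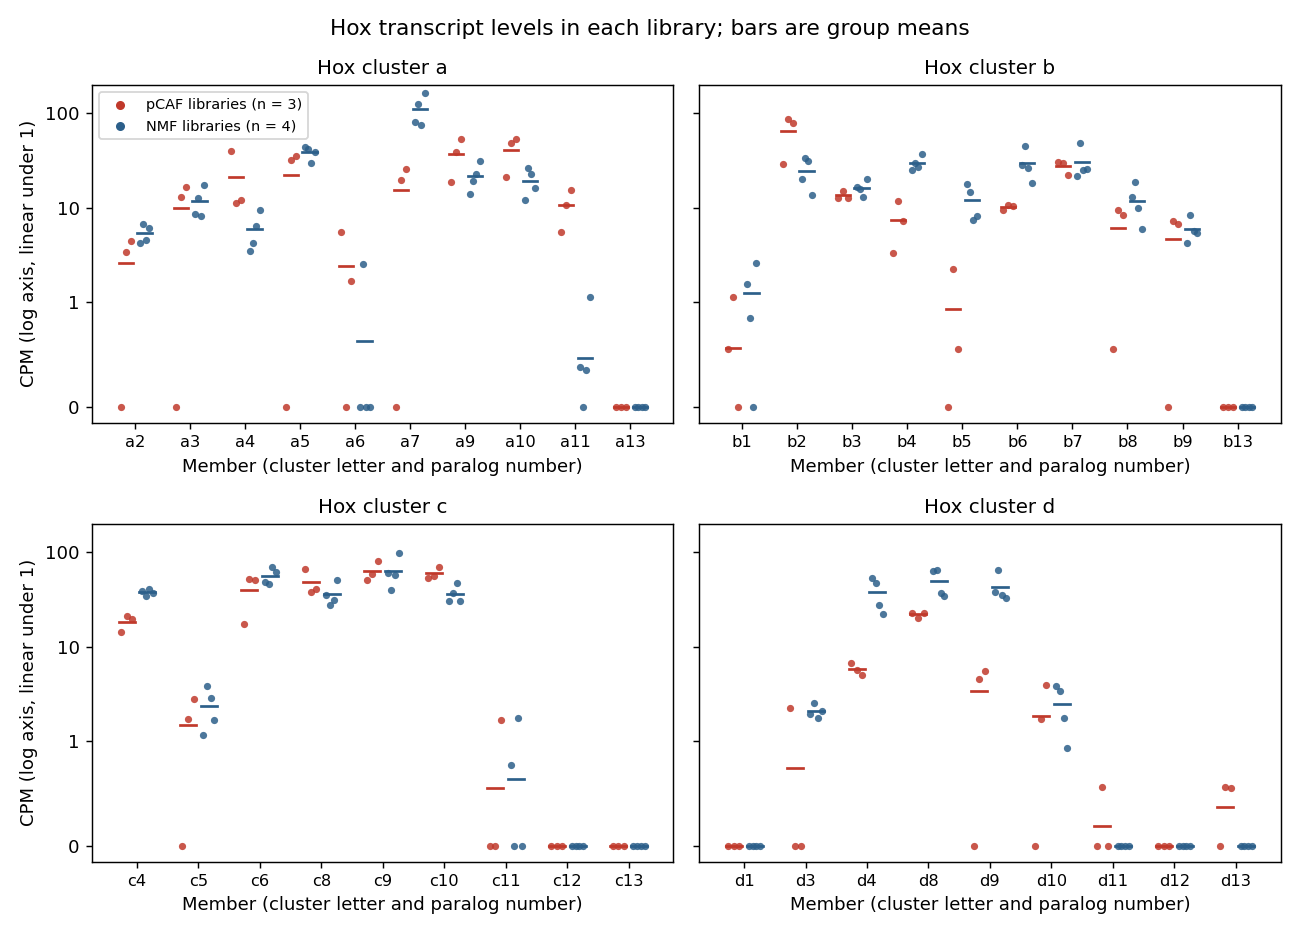
Levels of Hox genes in each library (CPM, log axis that is linear under 1), by cluster and paralog number, with pCAF libraries in red left of NMF libraries in blue and bars at the group means. The pCAF points of Hoxd4, Hoxd8, Hoxd9, Hoxb4, Hoxb5, Hoxb6, Hoxc4 and Hoxa7 lie below all NMF points, and those of Hoxa4, Hoxa11 and Hoxc10 above them.

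The composition of the Hox counts does not depend on the scaling of libraries. Central genes held 52.1%, 43.1% and 39.6% of all Hox counts across the 3 pCAF libraries, and 68.6%, 67.1%, 62.2% and 65.1% across the 4 NMF libraries. Posterior genes held 36.0%, 37.1% and 43.2% in pCAF, and 23.6%, 23.95%, 28.9% and 26.9% in NMF. Anterior genes held 11.9%, 19.8% and 17.2% in pCAF, and 7.76%, 8.94%, 8.91% and 7.96% in NMF. The groups did not overlap in any of these 3 shares, whose means differed by -20.8, 12.9 and 7.88 percentage points for central, posterior and anterior genes. The shares of a library add up to the whole, so a smaller central share makes the others larger. Hoxb2 held 52 of 89, 156 of 216 and 144 of 207 anterior counts in the pCAF libraries, against 52 of 139, 80 of 175, 89 of 170 and 73 of 339 in the NMF libraries. With Hoxb2 left out of the sum, the anterior share was 4.93%, 5.49% and 5.22% across the pCAF libraries, against 4.855%, 4.85%, 4.25% and 6.25% across the NMF libraries. Those ranges overlapped. Among the central counts Hoxa7 held 0 of 391, 35 of 471 and 47 of 478 in the pCAF libraries. In the NMF libraries it held 212 of 1230, 298 of 1314, 216 of 1186 and 889 of 2772. The central share without Hoxa7 was not computed, so the groups are not shown to stay apart without this gene. All these shares are sums over chosen genes and carry no test. In absolute terms the central genes summed to 249 ± 27.9 CPM in pCAF (SD, n = 3) and 491 ± 58.99 CPM in NMF (SD, n = 4), while posterior genes summed to 222 ± 69.7 CPM in pCAF and 192 ± 21.2 CPM in NMF. Anterior genes summed to 95.3 ± 39.9 CPM in pCAF and 62.7 ± 8.47 CPM in NMF. The groups did not overlap in the central sum, whereas pCAF replicate 1 lay below all NMF libraries and the other pCAF libraries above them in the anterior and posterior sums.

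**Figure D2:**
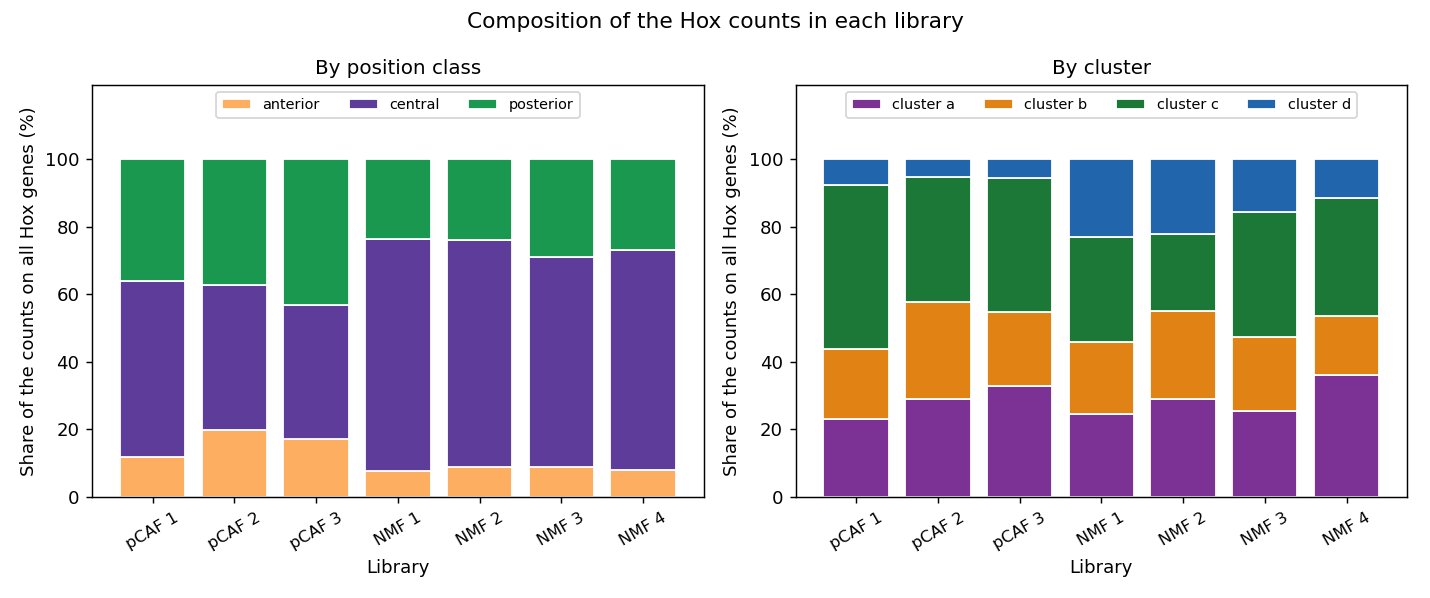
Share of each library's Hox counts (%) held by the anterior, central and posterior genes (left) and by the 4 clusters (right), with pCAF libraries left of NMF libraries. The central share is 39.6% to 52.1% in pCAF and 62.2% to 68.6% in NMF, and the cluster d share 5.40% to 7.60% in pCAF and 11.6% to 23.2% in NMF.

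Of the 4 clusters, Hoxd stood lowest in the tumor fibroblasts relative to fat pad cells. Its genes summed to 31.6, 33.2 and 37.7 CPM in pCAF, and 160.3, 182, 104 and 92.3 CPM in NMF, so that the mean was 3.94 times higher in NMF. They held 6.21 ± 1.21% of Hox counts in pCAF (SD, n = 3) and 18.1 ± 5.48% in NMF (SD, n = 4). All 3 tested Hoxd genes fell. Hoxc summed to 231 ± 30.9 CPM in pCAF and 232 ± 39.2 CPM in NMF, with 1 of 5 tested genes lower. Hoxb summed to 137 ± 45.97 CPM in pCAF and 162 ± 35.9 CPM in NMF, with 3 of 8 lower and 1 higher. Hoxa summed to 165 ± 62.8 CPM in pCAF and 218 ± 57.6 CPM in NMF, with 1 of 8 lower and 2 higher. Lower genes made up 12.5% of the tested genes in Hoxa, 37.5% in Hoxb and 20% in Hoxc, beside 14.2% of all tested genes. Higher genes made up 25% in Hoxa and 12.5% in Hoxb, beside 14.3% of all tested genes. For Hoxa, Hoxb and Hoxc the sums of the groups overlapped.

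Hoxd4, which patterns the hindbrain and neck vertebrae, fell the most clearly of the central genes. Its level was 6.65, 5.63 and 4.99 CPM in the 3 pCAF libraries, and 52.9, 46.9, 27.8 and 22.2 CPM in the 4 NMF libraries, each in replicate order, as throughout. The highest pCAF library was well below the lowest NMF library. Hoxd4 had a log2 fold change of -2.69 (SE 0.44, adjusted p = 0.00152), 6.43 times lower in pCAF. Its 3' end shares exon sequence on the same strand with the annotated gene Gm28230, so its share of reads is uncertain. Hoxd8, the next gene in the cluster with a testable level, was at 22.7, 20.3 and 22.7 CPM in pCAF, and 63.7, 64.6, 37.3 and 34.4 CPM in NMF. The pCAF libraries of Hoxd8 differed little among themselves, while NMF replicates 1 and 2 were above replicates 3 and 4, as they were for Hoxd4. Hoxd8 was 2.27 times lower (log2 fold change -1.18, SE 0.34, adjusted p = 0.0245). Hoxd8 no longer passed without pCAF replicate 2 (adjusted p = 0.0820 in the same edgeR test) or 3 (0.0676) and without NMF replicate 1 (0.0787) or 2 (0.0751), and with limma-voom (0.0503).

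In cluster b the fall ran over the neighbouring genes Hoxb4, Hoxb5 and Hoxb6. Hoxb4, a regulator of blood stem cell expansion, was at 3.33, 11.8 and 7.21 CPM in pCAF, and 25.1, 29.98, 26.8 and 37.2 CPM in NMF. It was 3.99 times lower (log2 fold change -1.99, SE 0.45, adjusted p = 0.00819), with no overlap between the groups. Hoxb5, known as a marker of long-term blood stem cells, was nearly absent from pCAF, at 0, 2.25 and 0.554 CPM, against 17.8, 14.8, 7.39 and 8.22 CPM in NMF. That is a log2 fold change of -3.62 (SE 0.84, adjusted p = 0.0101) from only 5 counts in pCAF, and -5.22 without pCAF replicate 2. Hoxb6, a gene of trunk mesoderm, was at 9.43, 10.7 and 10.53 CPM in pCAF, and 28.2, 44.8, 26.4 and 18.5 CPM in NMF. Each pCAF library of Hoxb6 lay below each NMF library, and it was 2.86 times lower (log2 fold change -1.52, SE 0.39, adjusted p = 0.0165). The Hoxb6 call was lost by a small margin without pCAF replicate 2 (adjusted p = 0.0501, edgeR) or 3 (0.0521) or NMF replicate 2 (0.0581), and with limma-voom (0.0542).

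Of the 8 tested genes of cluster b 7 had negative log2 fold changes, but only Hoxb4, Hoxb5 and Hoxb6 passed as lower. Hoxb7, the next gene, was at 30.5, 29.9 and 22.2 CPM in pCAF, and 21.6, 48.1, 25.3 and 25.8 CPM in NMF. Its groups overlapped, and the log2 fold change of -0.13 (SE 0.36) did not pass (adjusted p = 0.820). Hoxb8, which acts in thoracic patterning and myeloid progenitors, was at 0.555, 9.58 and 8.31 CPM in pCAF, and 13.1, 18.6, 9.86 and 5.98 CPM in NMF. Hoxb8 also overlapped and did not pass (log2 fold change -0.93, SE 0.73, adjusted p = 0.377). Hoxb3, which acts with Hoxa3 in pharyngeal organs, was at 12.8, 15.2 and 12.8 CPM in pCAF, and 16.6, 15.6, 13.0 and 19.98 CPM in NMF (adjusted p = 0.614). Its 3' end overlaps the antisense gene Hoxb3os. Whether the changes of neighbouring genes differ from each other was not tested.

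Hoxc4, the most anterior member of its cluster, was the only Hoxc gene that fell. It was at 14.4, 20.8 and 19.4 CPM in pCAF, and 39.0, 34.6, 40.8 and 36.6 CPM in NMF. Both groups were tight and did not overlap, and Hoxc4 was 2.07 times lower (log2 fold change -1.05, SE 0.29, adjusted p = 0.0223). This was lost without pCAF replicate 2 (adjusted p = 0.0518, edgeR) or 3 (0.0645), and without NMF replicate 1 (0.0608) or 3 (0.0670). Hoxc6, which in mouse is expressed in the mammary gland, was at 17.2, 51.8 and 50.4 CPM in pCAF, and 48.3, 46.4, 69.7 and 61.4 CPM in NMF. For Hoxc6, pCAF replicate 1 stood far below all others, and the gene did not pass (log2 fold change -0.51, SE 0.39, adjusted p = 0.367). Hoxc8, a thoracic patterning gene, was at 66.5, 37.7 and 41.0 CPM in pCAF, and 34.8, 27.4, 31.0 and 51.2 CPM in NMF (log2 fold change 0.42, SE 0.33, adjusted p = 0.383). Hoxc9 was at 50.5, 59.1 and 79.8 CPM in pCAF, and 59.9, 39.3, 56.7 and 96.7 CPM in NMF. Its log2 fold change was -0.01 (SE 0.34, adjusted p = 0.992), and its sign turned under several alternatives.

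Within cluster a, Hoxa7 was lower and Hoxa4 higher in pCAF. Hoxa7, a central gene, was at 0, 19.7 and 26.1 CPM in pCAF, and 81.9, 126, 76.04 and 166 CPM in NMF. All 3 pCAF libraries lay below all NMF libraries, and Hoxa7 was 7.36 times lower (log2 fold change -2.88, SE 0.81, adjusted p = 0.0232). Without pCAF replicate 1, where it had no count, and NMF replicate 4 the log2 fold change was -2.05 with an adjusted p of 6.14e-06 in edgeR. It did not pass without pCAF replicate 2 (adjusted p = 0.0510), NMF replicate 2 (0.0607) or NMF replicate 4 (0.0552), and without pCAF replicate 3 the log2 fold change was -3.50. The 3' end of Hoxa7 overlaps the antisense gene Hoxaas3, which had at most 4 counts in any library and was too low to test.

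Hoxa4, with Hoxb4, Hoxc4 and Hoxd4 a paralog of group 4, was higher in pCAF, at 39.9, 11.3 and 12.2 CPM, against 3.48, 4.22, 6.34 and 9.52 CPM in NMF. It was 3.49 times higher (log2 fold change 1.80, SE 0.57, adjusted p = 0.0382), with pCAF replicate 1 far above its group. Without that library the log2 fold change was 0.94 (adjusted p = 0.149, edgeR), and the call was also lost without NMF replicate 1 (0.107), 2 (0.107) or 3 (0.0859), with library totals (0.0639) and with limma-voom (0.0763). Its 3' end overlaps the annotated antisense gene Gm29430. The other 3 members of group 4 all fell, as given above. Hoxa5, needed for lung and trachea formation, was at 0, 32.1 and 34.9 CPM in pCAF, and 44.0, 42.2, 29.9 and 39.0 CPM in NMF. Apart from the pCAF library at 0 its groups overlapped (log2 fold change -0.79, SE 0.80, adjusted p = 0.500).

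Of the 3 tested posterior genes of cluster a only Hoxa11 passed, and it was higher in the tumor fibroblasts. Hoxa11, which patterns the forearm and the uterus, was at 5.55, 10.7 and 15.5 CPM in pCAF, and 0.386, 0, 0.352 and 1.12 CPM in NMF. Fat pad cells held 8 counts in all, against 57 in pCAF, and the groups did not overlap. The log2 fold change of Hoxa11 was 4.16 (SE 0.78, adjusted p = 0.00326), 17.9 times higher in pCAF, and 5.10 without NMF replicate 4, which held 6 of the 8 counts. Hoxa11os, a long noncoding RNA on the other strand whose exons overlap those of Hoxa11, was also higher, at 11.7 ± 3.07 CPM in pCAF (SD, n = 3) and 1.35 ± 1.40 CPM in NMF (SD, n = 4). Its log2 fold change was 3.20 (SE 0.78, adjusted p = 0.0121), lost without pCAF replicate 3 (0.0522) and 4.15 without NMF replicate 2. The sources do not say whether counting used the strand, so reads of the 2 genes cannot be told apart.

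Hoxa10 and Hoxa9, the next genes towards the centre of the cluster, had positive log2 fold changes that did not pass. Hoxa10, required in the uterus for implantation, was at 21.1, 48.4 and 53.2 CPM in pCAF, and 12.0, 26.2, 22.9 and 16.2 CPM in NMF. pCAF replicate 1 fell within the NMF range and the other pCAF libraries above it, and the log2 fold change was 1.08 (SE 0.40, adjusted p = 0.0703). Hoxa9, which with its paralogs Hoxb9 and Hoxd9 is needed for mammary gland growth in pregnancy, was at 18.9, 39.4 and 53.2 CPM in pCAF, and 13.9, 19.0, 22.5 and 31.0 CPM in NMF. Its groups overlapped through pCAF replicate 1 (log2 fold change 0.77, SE 0.41, adjusted p = 0.191). Without pCAF replicate 1 both genes passed, Hoxa10 with an adjusted p of 0.00723 and Hoxa9 with 0.0272 in edgeR. Both also passed without this library and NMF replicate 4 together, and Hoxa10 with DESeq2's test on all libraries (0.0469). Hoxc10, a lumbar and hindlimb gene, was at 53.8, 55.8 and 68.7 CPM in pCAF, and 30.5, 36.7, 46.8 and 30.1 CPM in NMF. All pCAF libraries of Hoxc10 lay above all NMF libraries, as in 19.0% of all tested genes. It did not pass in the main fit (log2 fold change 0.72, SE 0.28, adjusted p = 0.0755). Hoxc10 passed without pCAF replicate 1 (0.0365, edgeR), without this library and NMF replicate 4 together (0.0139) and with DESeq2's test (0.0493).

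Hoxd9 was the only tested posterior gene of cluster d. It was at 0, 4.51 and 5.54 CPM in pCAF, and 37.9, 65.0, 35.6 and 32.7 CPM in NMF. The groups were far apart, and Hoxd9 was 12.6 times lower in pCAF (log2 fold change -3.65, SE 0.69, adjusted p = 0.00341). Of its paralogs of group 9, Hoxa9 and Hoxc9 are given above and none passed. Hoxb9 was low, from 0 to 7.32 CPM in pCAF and from 4.25 to 8.44 CPM in NMF (adjusted p = 0.799). In the plot of changes by paralog number, group 9 thus spans log2 fold changes from -3.65 to 0.77, and group 4 from -2.69 to 1.80.

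**Figure D3:**
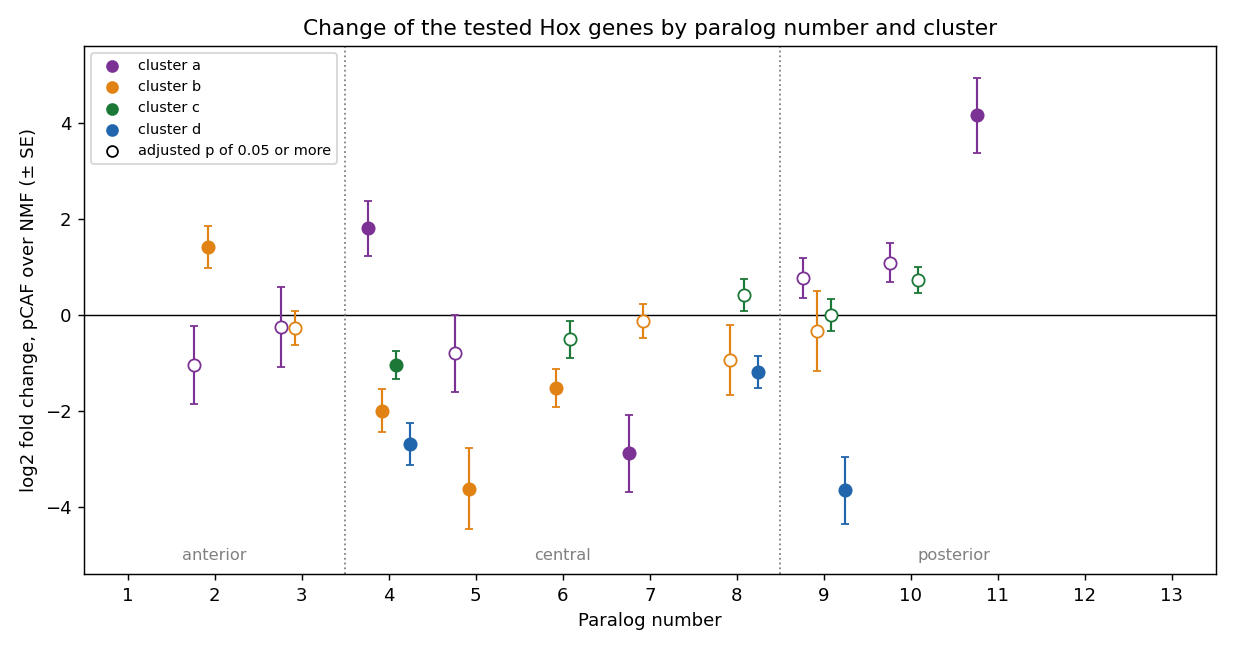
The log2 fold change (pCAF over NMF, ± SE) of the 24 tested Hox genes against paralog number, coloured by cluster, with filled points at an adjusted p under 0.05 and dotted lines between the anterior, central and posterior classes. Among the 13 central genes 7 lie below 0 with filled points and Hoxa4 alone above 0 with one, while the median is -1.05 for central and 0.72 for posterior genes.

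By class, 7 of 13 tested central genes were lower (53.8%) and 1 higher, with a median log2 fold change of -1.05. Among the 7 tested posterior genes 1 was lower and 1 higher (14.3% each), with a median of 0.72. Over all tested genes 14.2% were lower and 14.3% higher, so the posterior shares were close to those of all genes. Among the 4 tested anterior genes none was lower and 1 was higher, with a median of -0.26. The number of central genes that were lower was 7 without pCAF replicate 1, and 7 without this library and NMF replicate 4 together. Dropping pCAF replicate 2 left 3 such genes, pCAF replicate 3 or NMF replicate 2 left 4, NMF replicate 1 left 5, and NMF replicate 3 or 4 left 6. Posterior genes that were higher numbered 4 without pCAF replicate 1.

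The anterior genes were led by Hoxb2, which patterns the hindbrain. It was at 28.8, 87.9 and 79.8 CPM in pCAF, and 20.1, 33.8, 31.3 and 13.6 CPM in NMF. pCAF replicates 2 and 3 lay above all NMF libraries and replicate 1 within their range, and Hoxb2 was 2.67 times higher (log2 fold change 1.41, SE 0.44, adjusted p = 0.0366). Its 3' end overlaps the antisense gene Hoxb3os. The call was lost without any single library other than pCAF replicate 1, with adjusted p from 0.0545 to 0.131, and with library totals (0.0750). Hoxa3, needed for the thymus and parathyroid, was at 0, 13.0 and 16.6 CPM in pCAF, and 8.498, 12.7, 8.10 and 17.6 CPM in NMF (log2 fold change -0.26, SE 0.83, adjusted p = 0.851), and its sign turned without pCAF replicate 1 or NMF replicate 4. Its 3' end overlaps other annotated genes on both strands. Hoxa2, which sets the identity of the second pharyngeal arch, ranged from 0 to 4.43 CPM in pCAF and from 4.25 to 6.76 CPM in NMF (adjusted p = 0.372).

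Several Hox genes, among them all members of groups 12 and 13, were not detected or scarce. Hoxa13, Hoxb13, Hoxc12, Hoxc13, Hoxd1 and Hoxd12 had no count in any library, which allows a level of up to 0.557 CPM in pCAF and 0.228 CPM in NMF (3 counts over each group, counting error only). Hoxd13 had 2 counts in pCAF and none in NMF, and Hoxd11 had 1 in pCAF and none in NMF. Hoxc11 had 3 counts in pCAF and 7 in NMF, and Hoxd10 had 10 in pCAF and 28 in NMF. Hoxa6, Hoxb1, Hoxc5 and Hoxd3 were among the others that were too low, with at most 14 counts in a library. A difference in these genes was not detectable at this depth.

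Other transcripts of the clusters and their borders were described from lists. Of 3 tested long noncoding RNAs of the clusters Hoxa11os rose. Hoxd3os1, which overlaps Hoxd3 and Hoxd4, was at 7.22 ± 5.83 CPM in pCAF and 10.4 ± 7.75 CPM in NMF (adjusted p = 0.661). Of 14 tested genes that flank the clusters 2 rose (14.3%) and 1 fell (7.14%), with a median log2 fold change of 0.44. Over all tested genes 14.3% rose and 14.2% fell. Beyond the Hoxd cluster, Atf2, a stress-responsive transcription factor, rose 2.19-fold (36.6 ± 10.2 CPM in pCAF and 16.6 ± 3.13 CPM in NMF, adjusted p = 0.0256), but not without NMF replicate 1 (0.0808), 2 (0.0640) or 3 (0.0693) or with library totals (0.0624). Mtx2, a mitochondrial outer membrane protein, was at 102 ± 34.9 CPM in pCAF and 59.03 ± 14.98 CPM in NMF (adjusted p = 0.0960, and 0.0118 without pCAF replicate 1). Near Hoxc, Calcoco1, a coiled-coil coactivator, fell 2.51-fold (11.3 ± 3.13 CPM in pCAF and 28.6 ± 4.28 CPM in NMF, adjusted p = 0.0180), but not without pCAF replicate 3 (0.0776) or NMF replicate 1 (0.0645) or 3 (0.0516). Near Hoxb, Atp5g1, an ATP synthase subunit, was at 102 ± 100.9 CPM in pCAF and 24.99 ± 13.1 CPM in NMF (adjusted p = 0.0310). Its call was lost without pCAF replicate 1 (0.158, log2 fold change 0.76 in place of 2.00) and without NMF replicate 1 (0.0946), 2 (0.0933) or 3 (0.0867), and with limma-voom (0.0702). Near Hoxa, Snx10, a sorting nexin, was at 21.2 ± 10.9 CPM in pCAF and 10.53 ± 2.81 CPM in NMF (adjusted p = 0.129, and 0.0110 without pCAF replicate 1).

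Hox proteins bind DNA together with homeodomain cofactors of the TALE class, the Pbx, Meis and Pknox proteins. Of 7 tested cofactors 3 rose and 1 fell, where 14.3% of all tested genes rose and 14.2% fell. Cofactors that rose numbered 1 with library totals, with the replicate block, and without pCAF replicate 2 or 3 or NMF replicate 2 or 3. They numbered 4 with DESeq2's test and after thinning. Pknox2 rose 4.57-fold, with 37.8 ± 26.0 CPM in pCAF (SD, n = 3) and 8.03 ± 4.16 CPM in NMF (SD, n = 4; adjusted p = 0.0120), with a log2 fold change of 2.19, and of 1.47 without pCAF replicate 1. Meis1 rose 2.61-fold (41.04 ± 23.7 CPM in pCAF and 15.6 ± 3.54 CPM in NMF, adjusted p = 0.0328). Pbx2 fell 2.68-fold (18.6 ± 5.35 CPM in pCAF and 49.9 ± 11.2 CPM in NMF, adjusted p = 0.009995). Pbx3 (28.6 ± 13.7 CPM in pCAF and 11.2 ± 4.94 CPM in NMF, adjusted p = 0.0502) and Meis3 (9.29 ± 0.865 CPM in pCAF and 20.2 ± 5.01 CPM in NMF, adjusted p = 0.05004) missed the threshold narrowly. Meis3 passed without pCAF replicate 1 (0.0433), also together with NMF replicate 4 (0.0320), and with the filter at a mean of 10 CPM (0.0458). Library totals (0.0259), DESeq2's size factors (0.0473), upper-quartile scaling (0.0450) and DESeq2's test (0.0224) also gave a call for Meis3. Pbx3 passed without NMF replicate 1 (0.0449), after thinning (0.0276), with limma-voom (0.0366) and with DESeq2's test (0.0257). The call of Meis1 was lost without pCAF replicate 2 (0.0667) or 3 (0.191), without NMF replicate 1 (0.0838), 2 (0.0927) or 3 (0.0866), with library totals (0.0744) and with limma-voom (0.0652).

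Polycomb complexes keep Hox genes silent and trithorax-type complexes keep them active. Of 25 tested Polycomb genes 7 fell (28.0%) and 3 rose (12.0%), with a median log2 fold change of -0.19, beside 14.2% lower and 14.3% higher over all tested genes. Cbx7, a subunit that reads the repressive mark, was at 6.65, 10.1 and 4.99 CPM in pCAF and fell 8.16-fold, with means of 7.26 ± 2.63 CPM in pCAF and 59.5 ± 14.3 CPM in NMF (adjusted p = 3.69e-04). Cbx6 fell 3.27-fold (adjusted p = 0.00183), Phf1, an accessory subunit, 3.503-fold (adjusted p = 0.00324) and the methyltransferase Ezh1 2.96-fold (adjusted p = 0.00230). The E3 ligase Rnf2 rose 2.86-fold (46.2 ± 9.43 CPM in pCAF and 16.1 ± 5.57 CPM in NMF, adjusted p = 0.0102) and the histone-binding Rbbp7 2.44-fold (adjusted p = 0.0139, lost without NMF replicate 1 at 0.0568). Polycomb genes that fell numbered 4 when pCAF replicate 2 or 3 or NMF replicate 1 was dropped, and 4 with limma-voom. Those that rose numbered 5 when pCAF replicate 1 was dropped and 1 when NMF replicate 1 was. Of 15 tested trithorax-side genes 2 fell (13.3%, close to the 14.2% of all tested genes) and none rose, with a median log2 fold change of -0.28. Kmt2a, the methyltransferase MLL1 that maintains Hox expression, fell 2.82-fold (25.9 ± 7.36 CPM in pCAF and 73.2 ± 21.9 CPM in NMF, adjusted p = 0.0104), and its relative Kmt2b 2.86-fold (adjusted p = 0.0148). Kmt2c (adjusted p = 0.0654) and Kmt2d (adjusted p = 0.107) did not pass, but both did without pCAF replicate 1 (0.0280 and 0.0415) and with library totals (0.0477 and 0.0431), and 4 genes of this list then fell.

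**Figure D4:**
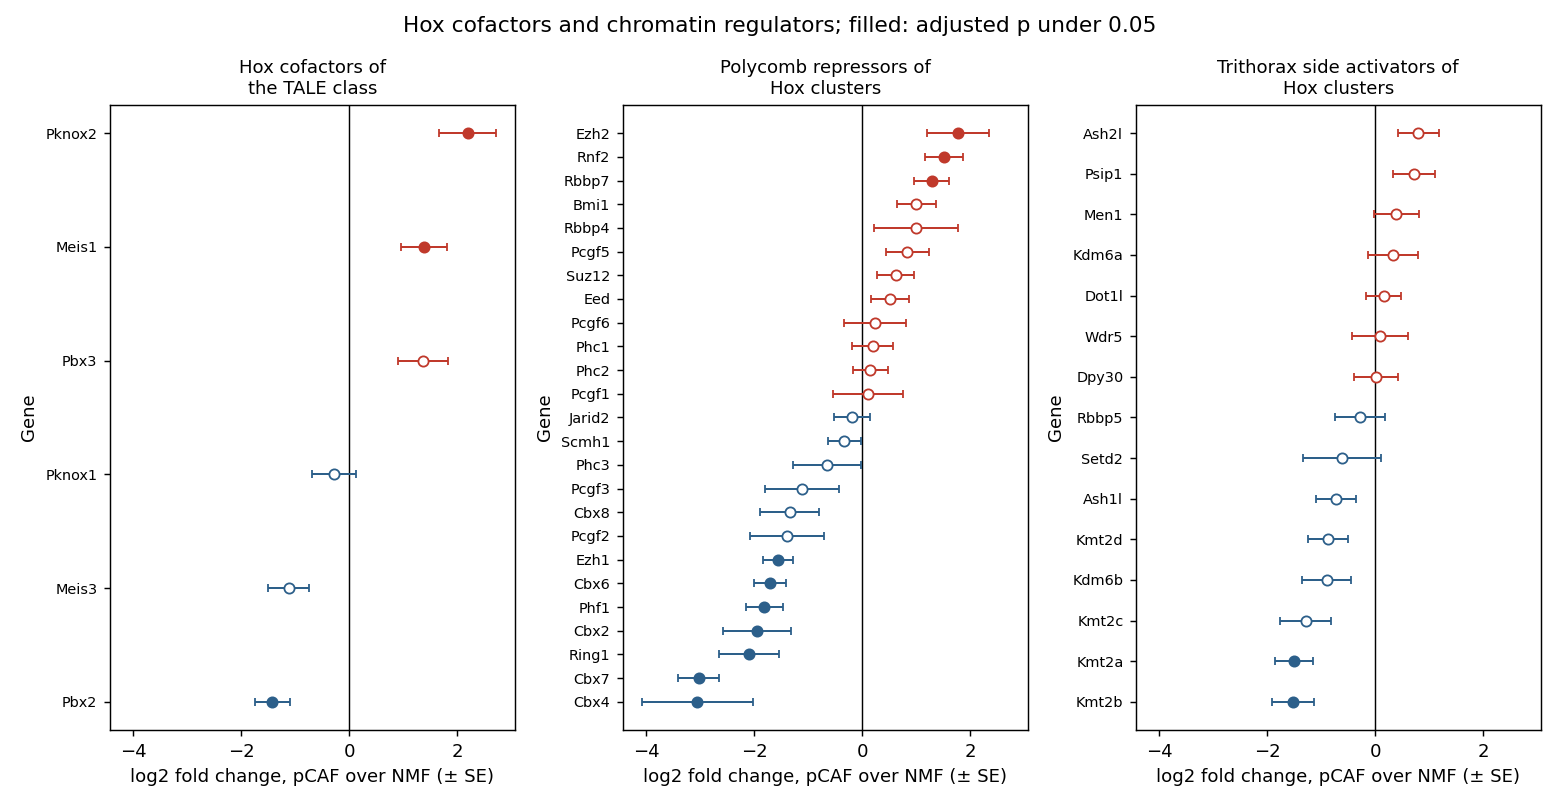
The log2 fold change (pCAF over NMF, ± SE) of tested Hox cofactors, Polycomb genes and trithorax-side genes, sorted within each list, with red points above 0, blue points below 0 and filled points at an adjusted p under 0.05. Cbx7, Phf1, Cbx6 and Ezh1 are filled and below 0, and Rnf2, Rbbp7, Pknox2 and Meis1 are filled and above 0.

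Retinoic acid switches Hox genes on in order along the cluster, and caudal factors act on the central genes. Of 8 tested upstream regulators 1 rose and 1 fell (12.5% each), where 14.3% of all tested genes rose and 14.2% fell. The caudal genes Cdx1, Cdx2 and Cdx4 had no count. Cyp26a1, which degrades retinoic acid, had 19.9 ± 4.40 CPM in pCAF and a single count over the 4 NMF libraries, and Rarg, a retinoic acid receptor, fell 3.13-fold (34.2 ± 4.32 CPM in pCAF and 107 ± 30.7 CPM in NMF, adjusted p = 0.00261). Egr2 was at 182 ± 130.2 CPM in pCAF and 103 ± 35.0 CPM in NMF (adjusted p = 0.202).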

How the data were processed

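RNA was measured in 3 pCAF and 4 NMF libraries made from the 3' ends of polyadenylated transcripts, per the labels' protocols. The authors deposited 1 table of raw counts per gene, whole numbers without normalization. The submitters' processing notes name bcl2fastq, STAR 2.4.2a, HTSeq and mm10, with no roles; the annotation, the use of strand, the treatment of multi-mapping reads and any molecular identifiers are not given in the sources used here. From the counts, edgeR 4.0.16 (R 4.3.3) was run with TMM scaling, its default filter on low counts and the robust quasi-likelihood test, with Benjamini-Hochberg adjustment over 10535 genes and a threshold of 0.05. CPM used the TMM-scaled library sizes, and the SE of a log2 fold change came from the F statistic. Replicates differed by more than sampling noise (chi-square per degree of freedom 3.21 to 42.2 within groups), and none was merged. Counting intervals and floors cover counting error only. Positions came from the GENCODE M21 annotation of mm10. The alternatives were other scalings, DESeq2 1.42.0, limma-voom 3.58.1, filters on low counts, thinning to 1885039 counts, a replicate block and leaving out libraries. The Hox genes, the gene lists and the tests were chosen with earlier results of these data known. Named genes were Hoxa11, Hoxd9, Hoxd4, all Hox genes called or at 10 CPM or more in a group, and from each other list up to 4 called genes at 10 CPM or more and up to 2 that did not pass or went the other way, by adjusted p. Leaving out pCAF replicate 1 and NMF replicate 4 together, the anterior share without Hoxb2 and the refits of listed genes were chosen after the data were seen. The shares of Hox counts, by position class and for cluster d, were not planned either. Some genes are counted in the totals but not reported here by name. The script was tested on simulated data with known changes. When the planted change was 2-fold, only 7 of 66 genes were recovered (10.6%). Recovery rose to 66.7% where it was 4-fold and reached 93.4% where it was 8-fold. The run made 113 calls, and 5 were false. A gene that did not pass is therefore not shown to be unchanged, above all where its change was near 2-fold or smaller.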

Additional observations from a re-analysis of the deposited data

Results flagged for a closer look

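In 67 sets of NMF values looked at, 6 had 1 library whose gap to its nearest neighbour, as a part of the whole range of the 4 libraries, exceeded Dixon's 95% critical value, and chance gives about 1 in 20. NMF replicate 2 stood high for Hoxd9 (gap 0.840 of the range), for Hoxb7 (0.844) and for the summed level of cluster b (0.858), which was 215 CPM in it. Cbx6 had such a gap at 0.844 and Atp5g1 at 0.956. Cyp26a1 had its only NMF count in NMF replicate 3, which gives a gap of 1.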

How the results depend on the processing

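The falls of Hoxb4, Hoxb5, Hoxd4 and Hoxd9 and the rise of Hoxa11 passed under each of the 17 alternatives that tested them. Hox genes that were higher (3) numbered 1 with library totals, 5 with DESeq2's test, 1 with the replicate block, 6 without pCAF replicate 1 and NMF replicate 4 together and 1 to 5 without single libraries. Hox genes that were lower (8) numbered 4 to 8 without single libraries. Over all genes, higher calls (1503) numbered 978 with the block, 2802 without both libraries and 1016 to 2021 without single libraries, and lower calls (1491) 2913 without both and 979 to 2187 without single libraries. With library totals all tested genes had a median log2 fold change of -0.26 and 37.1% of calls were higher, against 50.2% with TMM. Replicate numbers did not pair the samples (correlations of deviations -0.09, 0.08 and -0.01), and the replicate block gave 1 higher and 6 lower Hox genes.

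Signs turned only for changes that had not passed. Hoxa3 was 0.017 after thinning, 0.60 without both libraries and -0.85 to 0.31 without single libraries. Hoxc9 was 0.026 with limma-voom, 0.020 after thinning, 0.28 with the block, 0.41 without both and -0.20 to 0.30 without single libraries. Hoxb9 was 0.19 without both and -0.81 to 0.24 without single libraries, Hoxb7 -0.26 to 0.17, Hoxd3os1 -1.28 to 0.11, and Egr2 -0.16 without both. Hoxa7 was -4.36 with limma-voom. The cause of these shifts was not tested. Without single libraries the differences in share ran from -24.4 to -18.1 percentage points for central, 10.7 to 14.3 for posterior and 6.12 to 10.1 for anterior genes. Levels near a single count limit Hoxb5 in pCAF and Hoxa11 in NMF.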
